A study of Mus musculus with 6 samples.

Results

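Respiratory complexes II to V of mouse G1E-ER4 cells were examined through their nuclear genes. Protein-coding nuclear genes were taken by symbol from the GRCm38 annotation: Sdha to Sdhd, Sdhaf, Uqcr, Cyc1, Cox followed by a digit, and Atp5. Of 48709 genes in the count table, 61 matched, of which 8 belong to complex II, 9 to complex III, 27 to complex IV and 17 to complex V. Of the 61 genes, 56 passed the filter on low counts. The other 5 were Cox4i2 with 7 counts over all 6 libraries, Cox6a2 with 6, Cox8c with 4, and Cox7b2 and Cox8b with 0.

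All samples were G1E-ER4 cells, which grow as immature erythroblasts and go back to mouse embryonic stem cells. They carry the erythroid factor GATA-1 joined to part of the estrogen receptor, so that tamoxifen brings it into the nucleus and starts differentiation. One group received the CHD4-APR peptide, an aggregation-prone stretch of the chromatin remodeler CHD4 joined to the cell-penetrating Tat sequence. The CTRL group, labelled Control, received alanines joined to Tat. Each peptide was given at 10 μM, tamoxifen followed 2 h later for 28 h in both groups, and mRNA was sequenced from 3 libraries per group. The tamoxifen concentration is given as 100 nM in the growth protocol and as 100 μM in the design text, and it was the same for both groups. The line is a single transfected line and the labels do not say whether the 3 libraries came from separate cultures. The p-values therefore measure the spread between these libraries, which may be technical.

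The mitochondrial respiratory chain passes electrons from nutrients to oxygen and stores the energy as a proton gradient. Complex II (succinate dehydrogenase) feeds electrons from succinate into the ubiquinone pool, complex III hands them to cytochrome c, complex IV (cytochrome c oxidase) passes them to oxygen, and complex V (ATP synthase) uses the gradient to make ATP. Complexes III, IV and V join nuclear subunits with a few subunits encoded in mitochondrial DNA, whereas complex II is wholly nuclear. Erythroid precursors rely on mitochondria for heme synthesis as well as for ATP, and mitochondria are removed as red cells mature.

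Total counts ran from 41687482 to 49784177 per library. The erythroid genes Hba-a1, Hbb-bt, Slc4a1 and Alas2 were abundant in all 6 libraries, and the embryonic stem cell markers Pou5f1, Nanog and Sox2 had 0 counts. Levels below are normalised CPM (counts scaled to a common library size), scaled by the TMM method of edgeR. A gene was called where edgeR's quasi-likelihood test gave a Benjamini-Hochberg adjusted p (FDR) under 0.05 over all 12722 genes tested. All log2 fold changes are CHD4-APR over CTRL, with standard errors (SE).

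The genes of complexes II to V were lower, by a modest amount, in cells given the CHD4-APR peptide. Of the 56 genes tested, 39 fell, 0 rose and 17 were not called, where 17.8% of all genes tested fell, 20.4% rose and 38.3% were called in either direction. The median log2 fold change was -0.25 over the 56 genes and -0.01 over all genes tested, and 51 of the 56 values were below 0. When the trend of the counts on exonic length and GC content was removed (the length and GC correction), 30 genes were called lower, 12 of the 39 calls were lost and the median was -0.15. The range was -0.54 for Atp5k, a small membrane subunit of ATP synthase, to 0.12 for Cox16, an assembly factor. In 43 of the 56 genes every CHD4-APR library was below every CTRL library, and in 0 genes the order was the opposite, where 25% of all genes tested stood apart downward and 25% upward. The counts of bulk libraries do not tell fewer transcripts per cell from fewer cells of a kind, and the values are relative to the other RNA of the library.

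**Figure D1:**
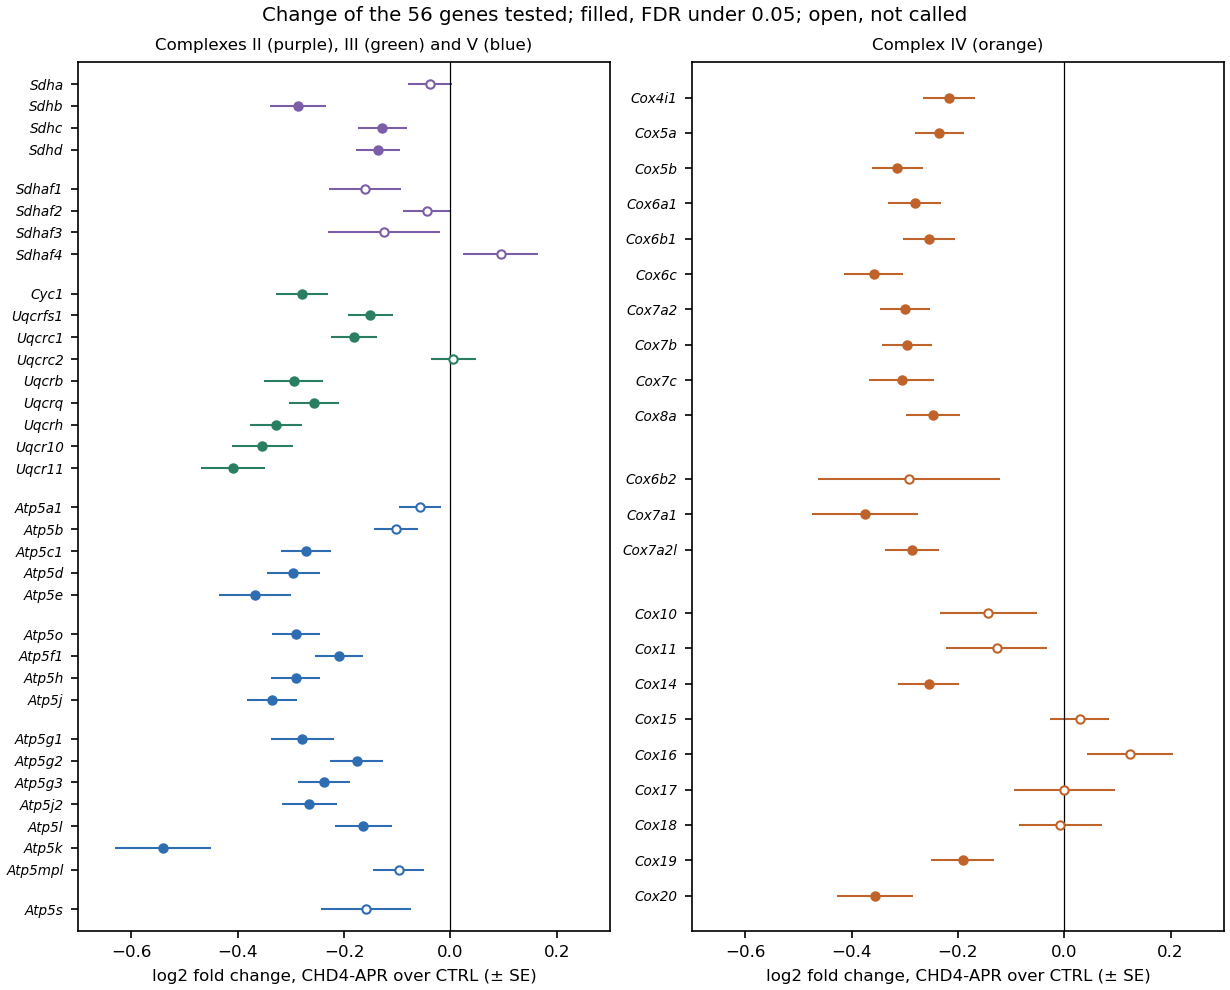
Log2 fold change of CHD4-APR over CTRL (x axis, ± SE) for the 56 genes tested, listed by complex and by class within it, with 3 libraries per group. Filled points have an FDR under 0.05: 39 lie to the left of 0 and none to the right, and the open points include Sdha, Uqcrc2, Atp5a1, Atp5b and most assembly factors.

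Summed over its genes, each complex was lower with the CHD4-APR peptide. All nuclear genes together held 10473, 9900.8 and 9772.4 CPM in the CTRL libraries and 8490.8, 8619.2 and 8933.9 CPM in the CHD4-APR libraries, a difference of -13.6%. The groups did not overlap. Complex II went from 769 ± 16.3 to 713 ± 4.24 CPM (SD, n = 3), a change of -7.25%. Complex III went from 1504 ± 57.8 to 1285 ± 36.6 CPM, or -14.6%. Complex V, which holds the most counts of the complexes here, went from 4561 ± 122 to 4005 ± 105 CPM, or -12.2%. Complex IV went from 3215 ± 185 to 2678 ± 83.7 CPM, or -16.7%. These sums weigh abundant genes most. The median log2 fold change per gene was -0.13 in complex II, -0.28 in III, -0.25 in IV and -0.27 in V, and with the length and GC correction it was -0.09, -0.14, -0.11 and -0.22. Differences between the complexes were not tested. Each of these sums gave p = 0.1 by exact permutation of the libraries (two-sided), and groups of 3 cannot give a lower value. As a share of all counts, without TMM scaling, the changes were -10.8% for all genes, -4.29% for complex II, -11.8% for complex III, -14.0% for complex IV and -9.39% for complex V.

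The libraries of a group also differed among themselves in these genes. CTRL 1 was the highest CTRL library for 45 of the 56 genes, and CHD4-APR 3 the highest CHD4-APR library for 41. Without CTRL 1 the summed difference was -11.7% and 37 genes were called lower.

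**Figure D2:**
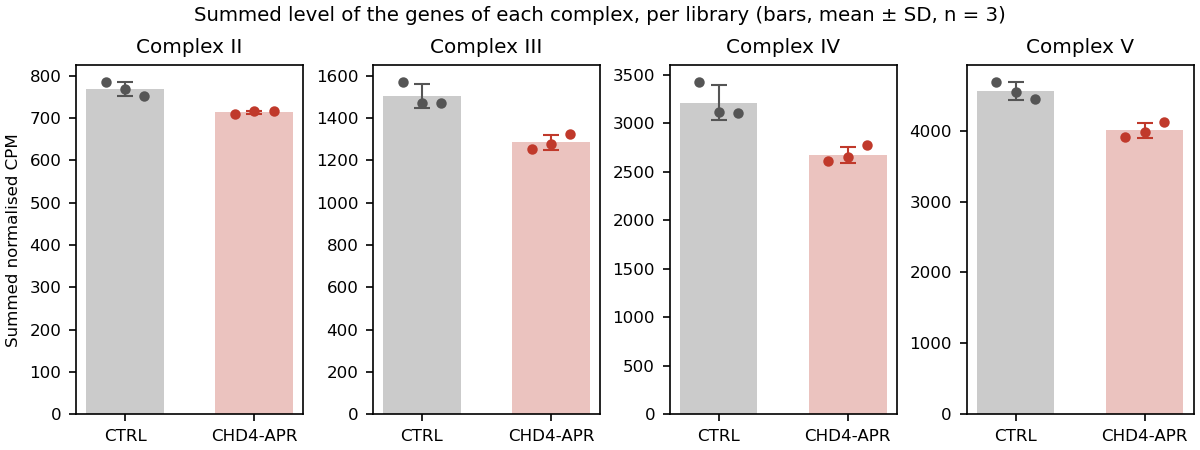
Summed normalised CPM (y axis, from 0) of the genes of each complex in the 3 CTRL and 3 CHD4-APR libraries. Points are libraries, and bars and whiskers give the mean ± SD. All CHD4-APR libraries sit below all CTRL libraries in each complex, from -7.25% in complex II to -16.7% in complex IV.

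In complex II, 3 of the 4 subunits fell and the catalytic one was not called. Sdhb, the iron-sulfur subunit (ENSMUSG00000009863, chromosome 4 from 140961203 to 140979193), had 92.7, 83.6 and 89.0 CPM in the CTRL libraries and 68.2, 74.3 and 75.0 CPM in the CHD4-APR libraries. The groups did not overlap, and its log2 fold change was -0.29 ± 0.05 (edgeR FDR = 5.23e-04), or -0.15 with the length and GC correction (FDR 0.0158). Sdha, the flavoprotein that oxidises succinate (ENSMUSG00000021577, chromosome 13 from 74322254 to 74350280), had 199.9, 203.4 and 195.2 CPM and then 191.1, 197.2 and 194.3 CPM. Its groups overlapped, with a log2 fold change of -0.04 ± 0.04 (edgeR FDR = 0.492). For every 100 counts of Sdha there were 44.4 ± 2.85 of Sdhb in the CTRL libraries and 37.3 ± 1.48 in the CHD4-APR libraries, a ratio chosen after the values were seen and not tested.

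The membrane anchors, which hold the heme b and the ubiquinone site, moved less. Sdhd, the complex II subunit with the highest level per kilobase of exon, fell by 0.14 on the log2 scale (SE 0.04, edgeR FDR = 0.0163), and Sdhc fell by 0.13 (SE 0.05, edgeR FDR = 0.0390). Neither call was stable. After the correction Sdhd had a log2 fold change of -0.02 (FDR 0.783) and Sdhc of -0.11 (FDR 0.0569). Sdhd had an FDR of 0.0674 without CHD4-APR 2 and 0.0771 without CHD4-APR 3, and Sdhc lost its call on leaving out any library but CHD4-APR 3, with an FDR of up to 0.180. None of the 4 assembly factors was called without the correction. Log2 fold changes were -0.16 for Sdhaf1 and -0.12 for Sdhaf3, which mature the iron-sulfur clusters of Sdhb, -0.04 for Sdhaf2, which attaches the flavin to Sdha, and 0.09 for Sdhaf4, a chaperone of Sdha. With the correction Sdhaf2 (log2 fold change -0.29, FDR 2.82e-04) and Sdhaf3 (-0.36, FDR 0.0194) were called lower. Sdhaf1 was called lower with upper quartile scaling (FDR 0.0468) and with protein-coding genes only (FDR 0.0478). Their summed level was 140.2 ± 3.94 CPM in CTRL and 135.8 ± 3.19 CPM in CHD4-APR (two-sided exact permutation p = 0.3). Of the exonic bases of Sdhaf1, 69.6% are shared with a transcript on the other strand, and the kit does not mark strand.

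In complex III, 8 of the 9 genes fell, and the exception was a core protein. Before the length and GC correction, the largest changes were in the small accessory subunits Uqcr11, Uqcr10 and Uqcrh. Uqcr11 (ENSMUSG00000020163, chromosome 10 from 80402997 to 80406830) had 97.6, 82.4 and 84.9 CPM in the CTRL libraries and 64.0, 66.1 and 69.3 CPM in the CHD4-APR libraries, a log2 fold change of -0.41 ± 0.06 (edgeR FDR = 7.38e-05). Uqcr10 had 128.5, 112.1 and 113.0 CPM and then 87.3, 91.1 and 98.1 CPM, a log2 fold change of -0.35 ± 0.06 (edgeR FDR = 1.95e-04). Uqcrh, the hinge protein that helps cytochrome c dock, was the complex III gene with the highest level per kilobase and fell from 270.4 ± 15.6 to 215.4 ± 7.45 CPM (SD, n = 3, log2 fold change -0.33 ± 0.05, edgeR FDR = 7.22e-05). In these 3 genes no CHD4-APR library reached a CTRL library. With the correction 6 of the 9 genes were called lower, and the log2 fold changes were -0.16 for Uqcr11, -0.14 for Uqcr10, -0.25 for Uqcrh and -0.31 for Uqcrb, another accessory subunit.

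Uqcrc2, a core protein of the matrix side of complex III, had 186.6, 190.3 and 184.9 CPM in CTRL and 186.6, 183.2 and 194.2 CPM in CHD4-APR. Its groups overlapped, and the log2 fold change was 0.01 ± 0.04 (edgeR FDR = 0.930). Its partner Uqcrc1 fell by 0.18 on the log2 scale (SE 0.04, edgeR FDR = 0.00311), and had a log2 fold change of -0.12 with the length and GC correction (FDR 0.0202). The 2 subunits that carry electrons to cytochrome c also fell: Cyc1, the heme protein cytochrome c1, by 0.28 (SE 0.05, edgeR FDR = 3.37e-04) and Uqcrfs1, the Rieske iron-sulfur protein, by 0.15 (SE 0.04, edgeR FDR = 0.00975). Neither was called with the length and GC correction, where the log2 fold changes were -0.10 for Cyc1 (FDR 0.0617) and -0.05 for Uqcrfs1 (FDR 0.334). Without CHD4-APR 3 the FDR of Uqcrfs1 was 0.0544. For every 100 counts of Uqcrc2 there were 47.2 ± 4.62 of Uqcr11 in CTRL and 35.3 ± 0.945 in CHD4-APR (SD, n = 3), a ratio chosen after the values were seen and not tested.

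In complex IV, all 10 common nuclear subunits fell, with log2 fold changes of -0.22 to -0.36, and 6 of the 10 were still called lower with the length and GC correction. These subunits surround the catalytic core that mitochondrial DNA encodes. Cox6c had 177.1, 167.8 and 157.6 CPM in CTRL and 125.8, 124.8 and 141.2 CPM in CHD4-APR, with no overlap and a log2 fold change of -0.36 ± 0.06 (edgeR FDR = 1.12e-04). Cox5b, which binds zinc, had 548.7, 493.5 and 498.0 CPM and then 400.0, 412.2 and 426.8 CPM, with a log2 fold change of -0.31 ± 0.05 (edgeR FDR = 1.05e-04). Cox7c had 108.7, 102.0 and 101.7 CPM and then 75.9, 84.0 and 92.7 CPM, with a log2 fold change of -0.31 ± 0.06 (edgeR FDR = 9.44e-04). In both genes the CHD4-APR libraries were below the CTRL libraries, and CHD4-APR 3 was nearest to them. Cox6a1 had the highest level per kilobase of exon of all 56 genes, with 720 CPM per kilobase in CTRL and 592 in CHD4-APR (log2 fold change -0.28 ± 0.05, edgeR FDR = 3.87e-04). With the correction its log2 fold change was -0.03 (FDR 0.563). The remaining subunits Cox4i1, Cox5a, Cox6b1, Cox7a2, Cox7b and Cox8a had log2 fold changes between -0.30 and -0.22.

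Several complex IV subunits have a second gene that is used in muscle, testis or lung. Here the common isoform held at least 99.979% of the counts of the Cox4i, Cox6a, Cox7b and Cox8 families in every library, 98.998% or more of the Cox6b family and 91.9% or more of the Cox7a family. The tissue isoforms Cox4i2, Cox6a2, Cox8b and Cox8c held at most 0.0213% of their family's counts in any library, and Cox7b2 had 0 counts. Cox6b2, the testis form of subunit 6B, held 0.951% ± 0.0503 of the Cox6b counts in CTRL and 0.923% ± 0.101 in CHD4-APR (two-sided exact permutation p = 0.8). Cox7a1, the heart and muscle form of subunit 7A, held 7.11% ± 0.892 of the Cox7a counts and then 6.73% ± 0.261 (two-sided exact permutation p = 0.7). Per kilobase of exon its share in CTRL was 11.9%. Both forms of subunit 7A were lower with the CHD4-APR peptide: Cox7a1 went from 9.75, 8.55 and 10.6 CPM to 7.09, 7.09 and 8.05 CPM (log2 fold change -0.38 ± 0.10, edgeR FDR = 0.00696), and Cox7a2 had a log2 fold change of -0.30 ± 0.05 (edgeR FDR = 1.33e-04). With the length and GC correction Cox7a1 was not called (log2 fold change -0.15, FDR 0.256) and Cox7a2 had a log2 fold change of -0.13 (FDR 0.0147). Cox6b2, at 2.04 ± 0.0156 CPM in CTRL, was not called (log2 fold change -0.29 ± 0.17, edgeR FDR = 0.195). Its value ran from -0.36 to -0.18 on leaving out each library. Cox7a2l, which links complex IV to complex III in supercomplexes, fell from 168.9 ± 10.4 to 138.4 ± 6.64 CPM (SD, n = 3, log2 fold change -0.29 ± 0.05, edgeR FDR = 4.16e-04, and -0.17 with the correction).

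The assembly factors of complex IV were mixed, with 3 of 9 lower and 6 not called. Cox20, a chaperone of the mitochondrially encoded Cox2, fell by 0.36 on the log2 scale (SE 0.07, edgeR FDR = 9.37e-04). Of the exonic bases of Cox20, 91.1% are shared with Hnrnpu on the other strand, so the reads of these genes cannot be told apart here. Cox14, which acts in early assembly and had the highest level per kilobase in this class, fell by 0.26 (SE 0.06, edgeR FDR = 0.00222). Cox19, a copper protein, fell by 0.19 (SE 0.06, edgeR FDR = 0.0185), and its FDR was 0.0655, 0.0735 and 0.0677 without CTRL 1, CHD4-APR 1 and CHD4-APR 3. After correction neither Cox14 (FDR 0.589) nor Cox19 (FDR 0.0530) was called.

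The factors that make heme A or load copper were among those not called. Log2 fold changes were -0.14 for Cox10 (heme O synthase) and 0.03 for Cox15 (heme A synthase). They were -0.13 for Cox11 and 0.00 for Cox17, which deliver copper, and -0.01 for Cox18 and 0.12 for Cox16, which act on Cox2. On leaving out each library these values ran from -0.24 to -0.07 for Cox10, from -0.20 to -0.06 for Cox11 and from 0.06 to 0.19 for Cox16. Cox17, at 7.63, 9.13 and 8.50 CPM in CTRL and 8.08, 9.01 and 8.24 CPM in CHD4-APR, overlapped between the groups (edgeR FDR = 0.998). Of the exonic bases of Cox11, 48.3% are shared with Tom1l1 on the other strand, and of those of Cox16, 56.8% with Gm20498 on the same strand.

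In complex V, 13 of 17 genes fell. The F1 head is a ring of α and β subunits around a central stalk. The ring subunits had the highest level per kilobase of the head and were not called, and the 3 central stalk subunits fell. Atp5b, the catalytic β subunit, had 1002.2, 1052.5 and 991.8 CPM in CTRL and 930.0, 950.5 and 956.4 CPM in CHD4-APR. No library overlapped, but the difference was small (log2 fold change -0.10 ± 0.04, edgeR FDR = 0.0619, and 0.0279 without CTRL 1). Atp5a1, the α subunit, had 760.4, 758.3 and 756.0 CPM and then 723.1, 727.1 and 735.9 CPM, again with no overlap and a smaller difference (log2 fold change -0.06 ± 0.04, edgeR FDR = 0.273). Atp5e, the ε subunit of the central stalk (ENSMUSG00000016252, chromosome 2 from 174461072 to 174464105), had 146.8, 124.9 and 128.6 CPM and then 95.4, 100.3 and 114.5 CPM (log2 fold change -0.37 ± 0.07, edgeR FDR = 4.77e-04). The γ subunit Atp5c1 fell by 0.27 (SE 0.05) and the δ subunit Atp5d by 0.30 (SE 0.05). The corrected log2 fold changes were -0.17 for Atp5c1 (FDR 0.00315) and -0.11 for Atp5d (FDR 0.0285).

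All 4 genes of the peripheral stalk, which holds the head still against the turning rotor, were called lower. Atp5j, which encodes factor F6, had 162.6, 159.2 and 153.4 CPM in CTRL and 122.4, 121.0 and 133.1 CPM in CHD4-APR (log2 fold change -0.34 ± 0.05, edgeR FDR = 5.36e-05). Atp5h (subunit d) and Atp5o (OSCP) each had a log2 fold change of -0.29, and Atp5f1 (subunit b) of -0.21. Atp5j shares 12.7% of its exonic bases with Gabpa on the other strand, and Atp5o shares 47.9% with other annotated transcripts.

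Of the 7 Fo genes, which build the membrane part, 6 fell. Atp5k, subunit e (ENSMUSG00000050856, chromosome 5 from 108433244 to 108434448), had 63.2, 53.3 and 57.6 CPM in CTRL and 33.0, 40.6 and 46.0 CPM in CHD4-APR. Its log2 fold change was -0.54 ± 0.09 (edgeR FDR = 2.24e-04), the largest of the 56 genes without the length and GC correction. With the correction it was -0.31, smaller than those of Atp5f1 (-0.46), Atp5l (-0.44) and Cox6c (-0.39), among others. Subunit e holds ATP synthase dimers together with subunit g, encoded by Atp5l. Atp5l fell by 0.16 (SE 0.05, edgeR FDR = 0.0245), with overlapping groups, and lost its call without CTRL 1, CTRL 2, CHD4-APR 1 or CHD4-APR 2 (FDR 0.0510 to 0.128). Atp5j2, subunit f, fell by 0.27 (SE 0.05). Atp5mpl, a small proteolipid with the highest level per kilobase of the Fo genes, was not called (log2 fold change -0.10 ± 0.05, edgeR FDR = 0.119), nor was Atp5s, factor B (log2 fold change -0.16 ± 0.08, edgeR FDR = 0.153). On leaving out each library Atp5mpl ran from -0.13 to -0.06 and Atp5s from -0.21 to -0.09.

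The ring of c subunits is encoded by 3 genes whose mature proteins are the same. Their shares of the Atp5g counts were 25.1% ± 1.03 for Atp5g1, 33.1% ± 0.252 for Atp5g2 and 41.8% ± 1.00 for Atp5g3 in CTRL, and 24.3% ± 0.968, 34.2% ± 0.220 and 41.5% ± 0.859 in CHD4-APR. The share of Atp5g2 was higher in every CHD4-APR library (34.1%, 34.2% and 34.5%) than in any CTRL library (32.8%, 33.1% and 33.3%), where the two-sided exact permutation p was 0.1, its lowest possible value. All 3 genes fell, by 0.28 for Atp5g1, 0.18 for Atp5g2 and 0.24 for Atp5g3 on the log2 scale. Per kilobase of exon the CTRL shares were 11.6% for Atp5g1, 44.8% for Atp5g2 and 43.5% for Atp5g3. With the length and GC correction the log2 fold change of Atp5g2 was 0.03 (FDR 0.677). Uncorrected, Atp5g2 had FDRs of 0.0502 and 0.0649 without CHD4-APR 1 and CHD4-APR 2.

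Small subunits of complex V were also set against the catalytic subunit of the same complex. For every 100 counts of Atp5b there were 6.31, 5.07 and 5.80 of Atp5k in CTRL and 3.55, 4.27 and 4.81 in CHD4-APR. The corresponding numbers for Atp5e were 14.7, 11.9 and 13.0 and then 10.2, 10.6 and 12.0. The CHD4-APR libraries were below the CTRL libraries for Atp5k, whereas for Atp5e CHD4-APR 3 lay above CTRL 2. These ratios were chosen after the values were seen and were not tested.

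**Figure D3:**
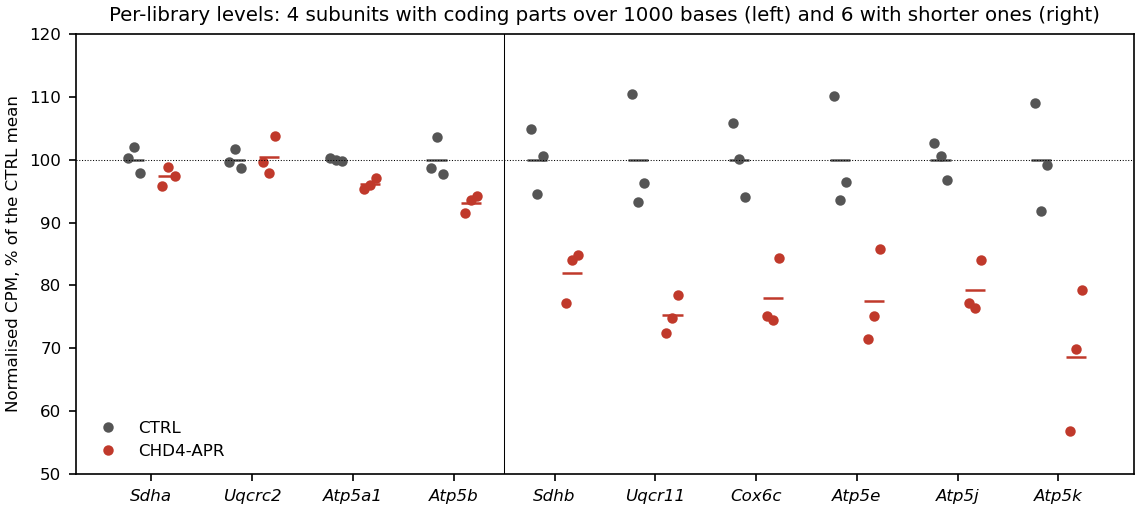
Normalised CPM of 10 subunits in each library, as a percentage of the CTRL mean of the gene (y axis, from 50 to 120), with lines at the group means. These genes were chosen after their values were seen. The CHD4-APR libraries of Sdha and Uqcrc2 overlap the CTRL libraries, those of Atp5a1 and Atp5b sit just below them, and those of the 6 subunits on the right sit further below, with Atp5k lowest.

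The change was set against the length of the coding part. Over all 56 genes, 38 of the 49 with a coding part under 1000 bases fell, with a median log2 fold change of -0.27, and 1 of the 7 with a longer one, with a median of -0.06. The contrast was sharper among the 39 common subunits, a subset taken after the values were seen. Of the 34 with a coding part under 1000 bases, 33 fell, with a median log2 fold change of -0.28. Of the 5 with a longer one, Sdha, Uqcrc1, Uqcrc2, Atp5a1 and Atp5b, only Uqcrc1 fell, and the median was -0.06. Atp5b was called lower with upper quartile scaling (FDR 0.0304), limma-voom (FDR 0.0465), protein-coding genes only (FDR 0.0371) and without CTRL 1. Corrected medians were -0.16 for the shorter and -0.06 for the longer coding parts. Among the other 17 members, which are tissue isoforms, assembly factors and Atp5s, 5 of the 15 with a short coding part fell and 10 did not, including all 4 Sdhaf genes, Cox11, Cox16, Cox17 and Cox18. The limit of 1000 bases was also chosen after the values were seen. The same held in direction over the 10107 genes tested that have a coding length: 32.4% of the 3438 genes with a coding part under 1000 bases fell, with a median of -0.11, and 12.5% of the 6669 others, with a median of 0.05. Across the 56 genes the log2 fold change had a Spearman correlation of 0.50 with coding length, of 0.54 with exonic length and of -0.21 with GC content. Over all genes with annotated values these were 0.36, 0.41 and -0.46. Genes share libraries and are not independent replicates.

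Members of complexes II to V had a median exonic length of 1918 bases against 3688 for all genes tested, and a GC content of 49.8% against 49.6%. A correction was therefore made in which the trend of each library's log2 CPM on exonic length and GC content was removed. With it 30 of the 56 genes were called lower and 0 higher, where 13.7% of all genes tested were lower and 12.9% higher, and the median log2 fold change was -0.15. The 30 comprised 27 of the 39 genes above and 3 others, Sdhaf2, Sdhaf3 and Atp5s. The 12 that were no longer called were Sdhc, Sdhd, Cyc1, Uqcrfs1, Cox4i1, Cox6a1, Cox6b1, Cox8a, Cox7a1, Cox14, Cox19 and Atp5g2. Complex IV lost the most, from 15 genes lower to 8, whereas complex V had 13 in both fits, Atp5g2 being lost and Atp5s gained. The corrected log2 fold changes of Atp5k and Atp5e were -0.31 and -0.27, and that of Atp5f1 was -0.46. By contrast, that of Cox14 was -0.04, of Cox6a1 -0.03, of Cox4i1 and Sdhd -0.02, and of Cox8a 0.00. Of the 28 genes shorter than the median exonic length, 24 were called lower without the correction, with a median of -0.29 that became -0.15. Of the 28 longer genes, 15 were called, with a median of -0.16 that became -0.14.

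**Figure D4:**
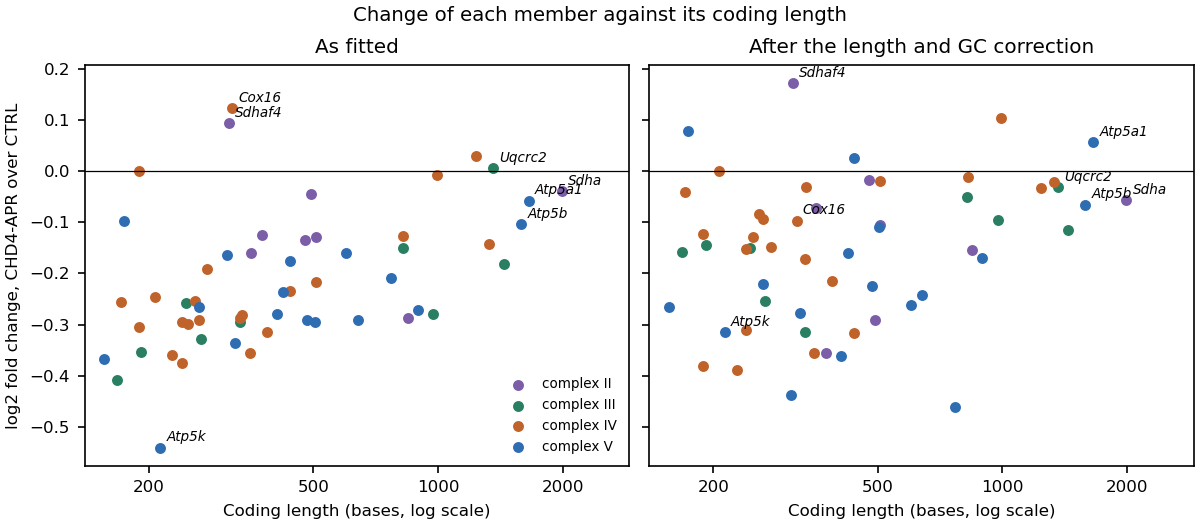
Log2 fold change of CHD4-APR over CTRL (y axis) of the 56 genes against the length of their coding part in bases (x axis, log scale), as fitted (left) and after the length and GC correction (right), with colours for complexes. On the left, the genes below -0.30 have short coding parts and Sdha, Uqcrc2, Atp5a1 and Atp5b lie near 0. On the right, the median moves from -0.25 to -0.15 and Sdhaf4 lies highest.

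Promoters of respiratory genes often lack a TATA box and hold sites for NRF1, for the ETS factor GABP and for YY1. Because so many of these genes were lower together, their promoters were searched on both strands for NRF1 (GCGCANGCG), GABP (CCGGAAGT), YY1 (AAGATGGCG), SP factors (CCCGCCCC) and the TATA box (TATAAA). RefSeq promoters on GRCm38.p6, from 250 bases before to 50 after the start, were found for 46 of the 61 genes, as 50 sequences. The sequences shown hold matches in genes that fell (Atp5k, Cox6a1, Atp5h and Uqcr11) and in genes that were not called (Sdha and Cox10). Each is upstream of its RefSeq start, on the minus strand, with the matching letters in capitals.
Atp5k, NRF1, chr5:108434430-108434459: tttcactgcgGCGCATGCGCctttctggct
Cox6a1, NRF1, chr5:115349087-115349146: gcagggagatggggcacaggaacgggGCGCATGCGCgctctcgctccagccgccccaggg
Atp5h, NRF1, chr11:115420027-115420086: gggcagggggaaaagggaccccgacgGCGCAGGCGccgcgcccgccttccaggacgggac
Uqcr11, GABP, chr10:80406854-80406913: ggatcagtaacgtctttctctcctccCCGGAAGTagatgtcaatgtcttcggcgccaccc
Sdha, NRF1, chr13:74350305-74350364: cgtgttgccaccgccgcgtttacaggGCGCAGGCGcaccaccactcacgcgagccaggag
Cox10, GABP, chr11:64079473-64079532: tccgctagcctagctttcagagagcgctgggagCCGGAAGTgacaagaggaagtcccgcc

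In Atp5k and Cox6a1 the capitals cover a pair of overlapping NRF1 matches, one on each strand. The NRF1 letters were in 28.0% of the members' promoters, against 6.25% of all 32851 promoters and 14.4% of those of the genes tested. GABP letters were in 16.0%, against 3.89% and 9.45%, and YY1 letters in 6.0%, against 1.4% and 3.47%. The SP letters, at 26.0%, were between the 16.5% of all promoters and the 30.5% of the genes tested, and the TATA box, at 10.0%, was between 13.6% and 6.42%. NRF1 matches were in 30.6% of the 36 promoters of members that fell and in 25.0% of the 12 of members that were not called. For GABP these shares were 13.9% and 25.0%. A match is not a bound site, and no binding was measured here.

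Of the factors named for these sites, Gabpa, Gabpb1, Gabpb2, Yy1 and Sp1 rose and Nrf1 was not called, all without the length and GC correction. In the whole list of 17 transcription factors and coactivators of nuclear respiratory genes, 14 were tested, 7 rose and 1 fell, where 20.4% of all genes tested rose and 17.8% fell. Their log2 fold changes had a median of 0.18. With the length and GC correction 3 were higher and 2 lower, where 12.9% of all genes tested were higher and 13.7% lower, and the median was 0.01. The 3 were Gabpa (log2 fold change 0.20), Yy1 (0.37) and Tfb2m (0.24), while Gabpb1, Gabpb2, Sp1 and Creb1 were no longer called, and the 2 were Esrra and Nrf1. Gabpa, the ETS subunit of GABP, rose from 26.3, 28.8 and 26.3 CPM to 36.0, 37.7 and 35.7 CPM (log2 fold change 0.42 ± 0.06, edgeR FDR = 5.06e-05). Yy1 rose from 72.3 ± 2.40 to 96.3 ± 3.18 CPM (SD, n = 3, log2 fold change 0.41 ± 0.05, edgeR FDR = 8.21e-06) and Creb1 rose by 0.39 on the log2 scale (SE 0.05, edgeR FDR = 3.35e-05). Esrra, an estrogen-related receptor, fell by 0.28 (SE 0.08, edgeR FDR = 0.00932), with an FDR of 0.0520 without CHD4-APR 2. Nrf1 had a log2 fold change of -0.11 ± 0.05 and was not called (edgeR FDR = 0.0918), whereas with the correction it was called lower, at -0.35 (FDR 5.71e-05). Ppargc1a, the coactivator PGC-1α, and Esrrg had 0 counts. These are transcript levels, and protein levels were not measured.

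Genes that assemble or partner these complexes but carry other names were mixed. Of 35 such genes, 34 were tested, 13 fell and 3 rose, against 17.8% and 20.4% of all genes tested. With the length and GC correction 13 were lower and 3 higher, against 13.7% and 12.9%, and most of them were the same genes. Among the lower ones Coa3, Pet100, Uqcc3 and Oxa1l were lost, and Cycs, Uqcc1, Slc25a3 and Lrpprc were gained. Higd1a, which associates with complexes III and IV, fell from 63.5 ± 3.95 to 46.5 ± 2.91 CPM (SD, n = 3, log2 fold change -0.45 ± 0.06, edgeR FDR = 2.64e-05). Uqcc2, a complex III assembly factor, fell by 0.45 (SE 0.06), and Slirp, which stabilises mitochondrial mRNAs, by 0.37 (SE 0.06). Atpif1, the inhibitor of ATP synthase, fell by 0.29 (SE 0.06, edgeR FDR = 7.58e-04). The 3 that rose were Hccs, which attaches heme to cytochromes c and c1, by 0.42 (SE 0.08, edgeR FDR = 4.48e-04), Coa5 by 0.29 (SE 0.05, edgeR FDR = 1.60e-04) and Sco1, a copper chaperone, by 0.26 (SE 0.10, edgeR FDR = 0.0438). Sco1 lost its call without any library but CHD4-APR 2, with DESeq2, with limma-voom and with upper quartile scaling. With the correction Sco1 was not called (0.12, FDR 0.415), Hccs was at 0.18 (FDR 0.0482) and Coa5 at 0.17 (FDR 0.00218), and the third gene called higher was Taco1. The corrected values of Uqcc2 and Atpif1 were -0.25 and -0.12. Cycs, the cytochrome c that links complexes III and IV, was not called (log2 fold change -0.13 ± 0.05, edgeR FDR = 0.0526), but was called lower with the correction (-0.28, FDR 4.26e-04). Usmg5, an Fo subunit whose symbol in the annotation did not match the rule, fell by 0.22 (SE 0.05).

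The mitochondrially encoded partners were mixed. Of the transcripts for subunits of complexes III to V, mt-Co2 fell by 0.21 (SE 0.05, edgeR FDR = 0.00472) and mt-Cytb by 0.12 (SE 0.04, edgeR FDR = 0.0458). Log2 fold changes were 0.08 for mt-Co1, -0.09 for mt-Co3, -0.10 for mt-Atp6 and 0.10 for mt-Atp8, none of them called. Complex I is the other entry point of the chain. Its genes were taken by symbols that start with Nduf and a, b, c, s or v. This pattern also takes in assembly factors (Ndufaf) and Ndufa4, which is among the partner genes above. Of these 46 genes 39 fell and 0 rose, with a median log2 fold change of -0.25. The shares of all genes tested were 17.8% and 20.4%. After the length and GC correction 25 of these were lower and 1 higher, against 13.7% and 12.9% of all genes tested.

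Erythroid and other markers moved alongside. Of 10 erythroid markers 9 were tested, 3 fell (Hbb-bt, Hba-a1 and Klf1) and 1 rose (Tfrc), where 17.8% of all genes tested fell and 20.4% rose. The marker left out, Hbb-b1, matched no gene by symbol. After correction 1 of the 9 was lower (Hbb-bt) and 1 higher (Slc4a1), where 13.7% of all genes tested were lower and 12.9% higher. Their summed level ran from 35216 to 37379 CPM in the CTRL libraries and from 30775 to 32490 CPM in the CHD4-APR libraries. Without the globins Hba-a1 and Hbb-bt it ran from 8426.7 to 8660.7 CPM and from 8698.7 to 8922.9 CPM, so the sum was lower with the CHD4-APR peptide through these 2 genes and the sum of the other 7 was higher. Of 12 markers of other blood cells 5 were tested, and 2 fell (Spi1 and Cd68), neither of them called with the correction. Their sum ran from 217.1 to 248.3 and from 197.2 to 202.9 CPM. Most of it was Spi1, with a mean of 187.4 CPM in CTRL and 158.5 CPM in CHD4-APR, and Csf1r, Itga2b and Pf4 were not called. Mpo, Vwf, Cd3e and Mcpt8 had 0 counts. The part of cell type or stage of differentiation in the changes of complexes II to V was not tested.

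Processed pseudogenes, copies of mRNAs in the genome that can take reads from their parent gene, were present for some members. Of 8 whose symbols matched the rule, 2 passed the filter. Atp5l2-ps fell from 250, 277 and 252 counts in CTRL to 99, 137 and 205 counts in CHD4-APR (log2 fold change -0.84, edgeR FDR = 9.30e-04), and Cox6c2 had 10 to 26 counts per library and was not called. How the counting treated reads that match several genes is not given in the sources used here, so Atp5l, Cox6c and other genes with copies are uncertain by an amount that was not tested.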

How the data were processed

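Poly(A) RNA was sequenced from 6 libraries, 3 per peptide. The authors deposited raw read counts per Ensembl gene. Per the labels and the study's methods, reads were trimmed with Cutadapt, aligned with STAR 2.7.10a to GRCm38 and counted with featureCounts. The setting for strand is not given in the sources used here. Another 2 columns match no sample and were not used.

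Identifiers were matched to GENCODE M21 on GRCm38, which named 48349 of 48709 genes. Genes passed filterByExpr, libraries were scaled by TMM (factors 0.968 to 1.02), and the groups were compared in edgeR 4.0.16 (R 4.3.3) with the quasi-likelihood F-test, no block and Benjamini-Hochberg adjustment at 0.05. The SE is the size of the fold change divided by the square root of F. Sums and shares were compared by two-sided exact permutation over libraries. Exonic length counts each base covered by any exon once, and coding length that of the principal transcript. The correction passed loess trends (span 0.3) on length and GC content as offsets, for the 12677 genes with both.

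The members and lists were chosen with earlier results of these data known. Named genes were the 3 largest called changes of each class, the highest level per exonic length, all members not called, the paralog families, and the 3 largest changes in each direction of the other lists. Others named in the text were chosen after their values were seen. Alternatives were DESeq2 1.42.0, limma-voom (limma 3.58.1), other scalings, filters and gene sets, a replicate block, the correction, an FDR of 0.01 and leaving out each library. On simulated counts of 12722 genes, 200 of them changed, edgeR recovered 143 with 10 false calls. With a simulated GC trend and 0 genes changed, edgeR made 4277 calls without the correction and 0 with it. The correction is built to remove a trend of this form. Whether it also removes true change that follows length or GC content was not tested. No library was a copy of another by a chi-square test of the counts.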

Additional observations from a re-analysis of the deposited data

How the results depend on the processing

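Between 38 and 41 genes of complexes II to V were called lower, and 0 higher, under other scalings, tests, filters and gene sets and with a replicate block, 34 at an FDR under 0.01, and 35 to 38 on leaving out each library. Of the 39 calls, 33 held on leaving out each library and 26 under all alternatives. The median log2 fold change ran from -0.268 to -0.204 on leaving out each library. It was -0.1461 with the length and GC correction and -0.1453 with the correction and the replicate block, a fit that called 33 genes lower and 1 higher (Sdhaf4, 0.171). Over all genes 3703 to 4928 were called on leaving out each library. Upper quartile scaling turned the split of calls to 2601 lower and 2419 higher, as did the correction (1746 and 1635).

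The labels do not say whether the replicate numbers pair the samples. Deviations of same-numbered libraries correlated at 0.0697, 0.0552 and -0.035. Numbers 1 and 2 correlated best with themselves, and number 3 did not. On the second principal component CTRL 1 was at 14.33 and CHD4-APR 1 at 14.14, and the other libraries had negative values. The block gave 2475 lower and 2739 higher over all genes, against 2270 and 2601 without it, and 39 lower in complexes II to V. A shared effect of the replicate number was not tested.

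With the correction, and then with the block as well, values changed sign for Uqcrc2 (-0.03099, -0.0314), Cox8a (6.899e-05, 1.465e-04), Cox15 (-0.03336, -0.03296), Cox16 (-0.09683, -0.09567), Cox17 (-0.1229, -0.1196), Cox18 (0.1038, 0.1061), Atp5a1 (0.0574, 0.05759), Atp5g2 (0.02629, 0.02514) and Atp5mpl (0.07915, 0.07993). Uqcrc2 was -0.01115 with upper quartile scaling and -0.003667 with protein-coding genes only, and Cox17 -0.0167 and -0.008993, and -0.001171 with limma-voom. On leaving out each library Uqcrc2 ran from -0.01196 to 0.02704, Cox15 from -0.00101 to 0.0612, Cox17 from -0.06643 to 0.06429 and Cox18 from -0.05812 to 0.03014. None of these but Cox8a and Atp5g2 was called in the analysis reported. The cause was not tested.

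Per exonic length, CTRL shares were 0.61% for Cox6b2, 11.88% for Cox7a1, 11.61% for Atp5g1, 44.84% for Atp5g2 and 43.55% for Atp5g3. Without TMM scaling, an alternative added after the data were seen, complex II changed by -4.293% and complex V by -9.388%. The lowest levels among the genes tested were those of Cox6b2 and Sdhaf3, at 2.04 and 5.08 CPM in CTRL.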
